A study of Mus musculus with 10 samples.

Results

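Proteasome subunits and assembly chaperones were taken as every gene of the count table whose mouse symbol starts with Psma, Psmb, Psmc, Psmd, Psme, Psmf or Psmg, apart from symbols with -ps. This gave 49 of 19178 genes, on 16 chromosomes. All 49 passed the filter on low counts. The study sequenced RNA from mouse dendritic cells, which present antigen to T cells, and compared Ptbp1-deficient with wild-type (WT) mice. There were 5 Ptbp1-deficient and 5 WT libraries, all from mice aged 8 to 10 weeks. Ptbp1 encodes an RNA-binding protein that regulates splicing. The labels give no tissue of origin, sex, strain, Cre driver or altered part of Ptbp1, and leave unsaid whether each library stands for its own mouse. The spread behind each p-value is therefore that between libraries, and may be technical.

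The proteasome is the protease that degrades ubiquitin-tagged proteins. Its barrel-shaped core is built of alpha and beta rings, and catalytic beta subunits inside it cut the protein chain. A regulatory cap recognises ubiquitin, unfolds the substrate with ring-shaped ATPases and feeds it into the core. In cells exposed to interferon, and in many antigen-presenting cells, inducible catalytic subunits take the place of the constitutive ones and form the immunoproteasome, which is known for making peptides for MHC class I. The PA28 activator binds the ends of the core as another cap, and dedicated chaperones assemble core and regulatory cap.

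Levels are TMM-normalized CPM, counts scaled to a common library size, listed for replicates 1 to 5 and summarised as mean ± SD over the 5 libraries of a group. Log2 fold changes are Ptbp1-deficient over WT. A gene was said to have risen or fallen where the quasi-likelihood test of edgeR gave an adjusted p under 0.05 (Benjamini-Hochberg, over the 18248 genes tested). Gene counts came to 61759378 to 92697815 in Ptbp1-deficient libraries and to 50516163 to 66153758 in WT libraries. Ptbp1 itself averaged 74.4 ± 1.08 CPM in Ptbp1-deficient libraries and 294 ± 21.1 CPM in WT libraries, so its level was 25.3% of WT. All 12 dendritic cell markers listed were measured, and their summed level was 34848 to 37423 CPM in Ptbp1-deficient libraries and 29616 to 36041 CPM in WT libraries. Most of that sum came from Cd74, H2-Ab1 and H2-Aa, with means of 13828, 8999 and 7049 CPM in Ptbp1-deficient libraries. It therefore says little about the other markers, which are taken up further on.

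Of the 49 proteasome genes, 44 rose in Ptbp1-deficient cells and 5 did not pass the test. None fell in edgeR, nor in DESeq2 or limma-voom on all libraries, and none was lower at an unadjusted p under 0.05. Psma8 fell without WT replicate 5, and Psmd11 fell in the deposited FPKM values, as described with those genes. Over all genes tested, 21.9% rose and 23.1% fell. The proteasome genes are well expressed, and among the 9117 genes with a mean of at least 10 CPM 32.5% rose and 25.1% fell. Of the 45 proteasome genes above that level, 43 rose. Their changes were mostly small: the median log2 fold change of the 49 was 0.40, against -0.03 over all genes tested. Psmb9 alone rose by over 2-fold, 8 rose by over 1.5-fold (the 5 inducible genes, Psma4, Psma5 and Psmc3ip), and the other 36 by less. In 42 of the 49 every Ptbp1-deficient library lay above every WT library, a pattern seen in 17.2% of all genes tested.

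Proteasome genes together took 0.539% to 0.609% of the gene counts of Ptbp1-deficient libraries and 0.388% to 0.424% of those of WT libraries. The 5 inducible genes Psmb8, Psmb9, Psmb10, Psme1 and Psme2 took 0.198% to 0.236% in Ptbp1-deficient libraries and 0.108% to 0.128% in WT libraries. The other 44 members took 0.341% to 0.374% in Ptbp1-deficient libraries and 0.276% to 0.295% in WT libraries. All 3 shares were higher in each Ptbp1-deficient library than in any WT library. In bulk samples such as these, more RNA of these genes per cell and a larger share of cells with high levels cannot be told apart.

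**Figure D1:**
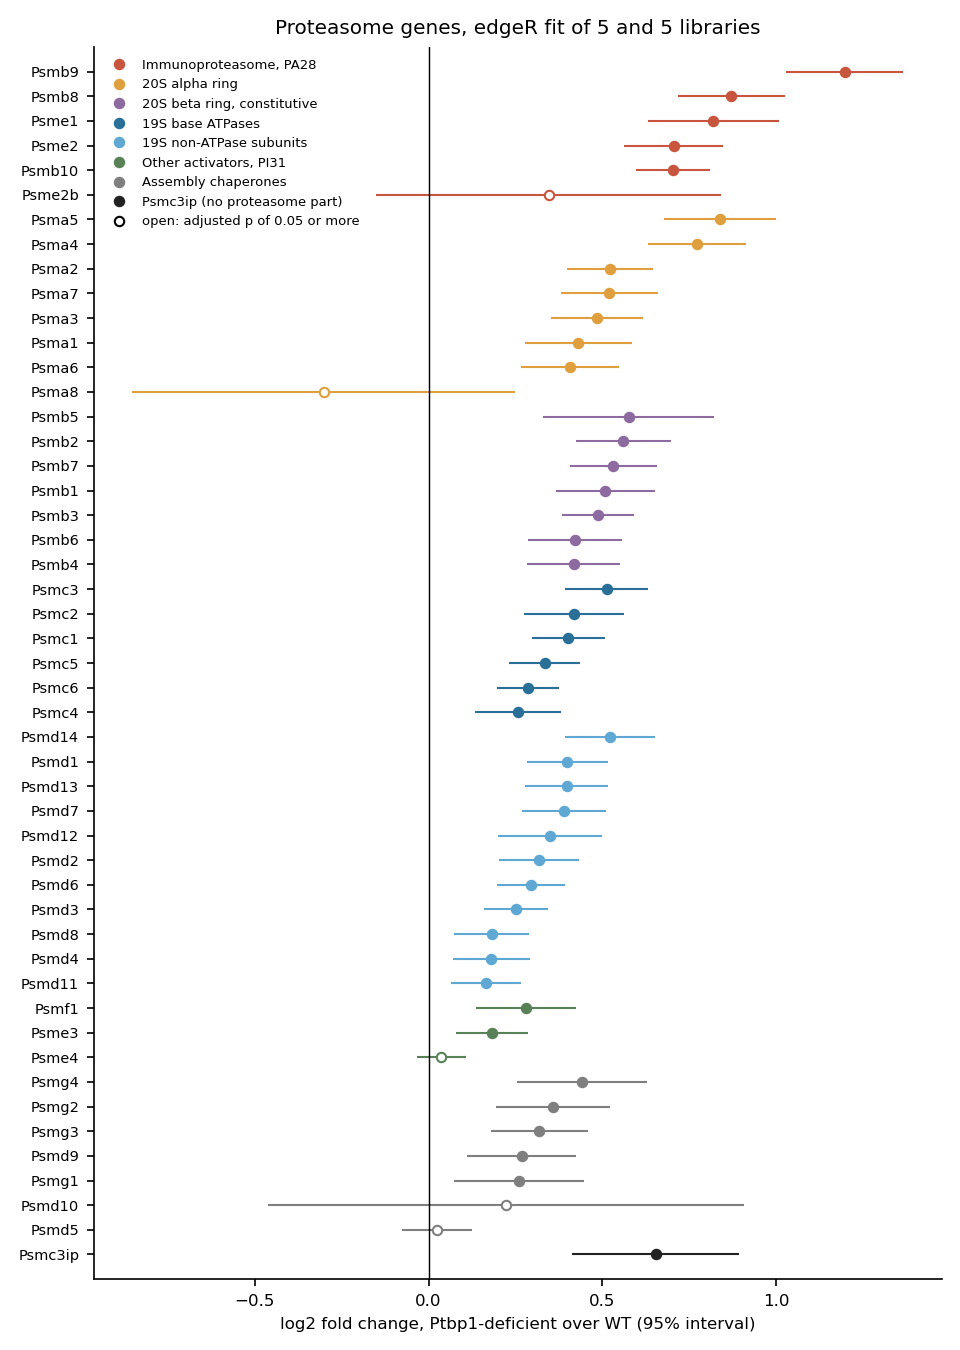
Log2 fold change of each of the 49 proteasome genes, Ptbp1-deficient over WT, from the edgeR fit of 5 and 5 libraries, grouped and coloured by part; bars are 95% intervals and open circles are genes with an adjusted p of 0.05 or more. Filled points all lie right of 0, with Psmb9 farthest right at 1.20, and the open points are Psme2b, Psma8, Psme4, Psmd10 and Psmd5.

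As a group the inducible genes had the largest changes, although the alpha subunits Psma5 and Psma4 exceeded 3 and 2 of them. All 5 rose, by 1.63-fold to 2.29-fold, with a median log2 fold change of 0.82, against 0.39 for the other 44 members, of which 39 rose. Whether the 5 moved more than the others was tested only through ratios to their counterparts, given further on. Psmb8 (chr17:34197721-34201454, plus strand) and Psmb9 (chr17:34181987-34187764, minus strand) lie in the MHC class II region beside the peptide transporter genes Tap1 and Tap2, in GRCm38. Psmb10 lies at chr8:105935735-105938444, minus strand, and the PA28 genes Psme1 (chr14:55578123-55581529, plus strand) and Psme2 (chr14:55587441-55591113, minus strand) are neighbours.

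Promoter sequences are shown for 5 genes: the inducible Psmb9, Psmb8 and Psme1, and the constitutive catalytic genes Psmb5 and Psmb6. They set the sequence around the start of genes that moved together side by side. All but the Psmb9 window hold a match, so the windows shown do not stand for the members as a whole. They are RefSeq windows of GRCm38.p6, written 5′ to 3′ on the gene's strand, from 250 bases before to 50 bases after the start, in lower case. Capitals mark a match to a searched motif. The RefSeq starts of the 3 inducible genes lie inside the longer gene spans given above. The Psmb9 window is chr17:34187281-34187580 on the minus strand and the Psmb8 window chr17:34197945-34198244 on the plus strand. The Psme1 window is chr14:55578244-55578543 (plus), the Psmb5 window chr14:54617946-54618245 (minus) and the Psmb6 window chr11:70525107-70525406 (plus).
Psmb9: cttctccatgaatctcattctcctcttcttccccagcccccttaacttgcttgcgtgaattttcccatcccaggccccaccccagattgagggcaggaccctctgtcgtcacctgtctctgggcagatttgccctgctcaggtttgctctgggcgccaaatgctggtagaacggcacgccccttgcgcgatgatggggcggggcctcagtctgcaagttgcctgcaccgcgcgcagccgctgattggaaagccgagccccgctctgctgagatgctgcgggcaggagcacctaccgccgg
Psmb8: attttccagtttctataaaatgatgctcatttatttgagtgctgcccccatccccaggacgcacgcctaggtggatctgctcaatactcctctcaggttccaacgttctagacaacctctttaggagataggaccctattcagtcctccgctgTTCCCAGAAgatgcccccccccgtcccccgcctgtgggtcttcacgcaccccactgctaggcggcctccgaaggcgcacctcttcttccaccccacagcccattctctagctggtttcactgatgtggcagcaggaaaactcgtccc
Psme1: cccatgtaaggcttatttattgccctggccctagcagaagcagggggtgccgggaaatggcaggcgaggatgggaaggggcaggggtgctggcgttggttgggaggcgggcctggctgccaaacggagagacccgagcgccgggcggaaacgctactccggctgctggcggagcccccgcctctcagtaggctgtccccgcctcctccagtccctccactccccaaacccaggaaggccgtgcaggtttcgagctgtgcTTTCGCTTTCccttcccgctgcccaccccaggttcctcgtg
Psmb5: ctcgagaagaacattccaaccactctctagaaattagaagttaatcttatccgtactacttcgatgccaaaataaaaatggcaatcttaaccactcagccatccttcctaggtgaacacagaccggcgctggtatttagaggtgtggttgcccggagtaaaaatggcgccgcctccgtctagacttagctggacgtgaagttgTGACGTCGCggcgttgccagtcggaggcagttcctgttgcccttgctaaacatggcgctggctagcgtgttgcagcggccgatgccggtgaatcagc
Psmb6: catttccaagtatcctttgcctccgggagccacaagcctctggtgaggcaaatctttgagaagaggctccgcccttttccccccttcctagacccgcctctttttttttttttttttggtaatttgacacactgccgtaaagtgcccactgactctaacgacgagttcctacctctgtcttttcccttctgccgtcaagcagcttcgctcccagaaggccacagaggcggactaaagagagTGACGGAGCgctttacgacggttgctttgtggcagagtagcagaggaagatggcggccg

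The motifs were searched on both strands in 44 windows of 41 of the 49 members and in all 32851 RefSeq promoter windows. The core of the interferon-stimulated response element (GAAA, any 2 bases, then GAAA) was in 5 of the 44 windows (11.4%) and in 3.44% of all windows; the 5 belong to Psme1, Psmb3, Psmd4, Psmd9 and Psmg4. In Psme1 it is the capitals TTTCGCTTTC, the minus-strand form, starting at base 260 of the window, after the start of the gene. The gamma-activated sequence TTCNNNGAA, bound by STAT factors, was in 3 windows (6.82%), of Psmb8, Psmd2 and Psmg1, and in 8.3% of all windows. In Psmb8 it is TTCCCAGAA at base 154. The core of the antioxidant response element, TGACNNNGC, which NFE2-like factors bind, was in 6 windows (13.6%) and in 12.4% of all windows; it is TGACGTCGC at base 204 in Psmb5 and TGACGGAGC at base 242 in Psmb6. No match to the 3 motifs was found in the Psmb9 window, nor in those of the inducible Psmb10 and Psme2, which are not shown. In the members' windows no match overlapped one of another motif. A match describes letters, not a bound site.

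Psmb9, the inducible subunit that replaces the caspase-like Psmb6, had 587, 579, 644, 705 and 642 CPM in the Ptbp1-deficient libraries, against 243, 289, 291, 304 and 248 CPM in the WT libraries. The lowest Ptbp1-deficient library lay at 1.90 times the highest WT library, and the rise was 2.29-fold (log2 fold change 1.20, SE 0.077, adjusted p = 6.4e-07). Tap1, which starts 211 bp away on the other strand, averaged 963 ± 57.4 CPM in Ptbp1-deficient libraries and 442 ± 19.8 CPM in WT libraries (log2 fold change 1.12, adjusted p = 1.2e-07). The annotation gives Psmb9 and Tap1 212 exon bases in common, 5.79% of the exon bases of Psmb9. The sources used here do not give whether counting used strand, and without it reads of the shared bases cannot be told apart.

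Psmb8, which replaces the chymotrypsin-like Psmb5, had 563, 550.4, 605, 656 and 604 CPM in the Ptbp1-deficient libraries, against 302, 328, 352, 357 and 289 CPM in the WT libraries. The groups did not overlap, and WT replicates 1 and 5 were the lowest of all (log2 fold change 0.87, SE 0.070, adjusted p = 2.8e-06). An antisense transcript, Gm20496, overlaps 14.7% of its exon bases. Psmb10, which replaces the trypsin-like Psmb7, had 143, 145, 151, 166 and 144 CPM in the Ptbp1-deficient libraries, against 87.1, 90.7, 93.8, 95.3 and 93.5 CPM in the WT libraries. Its WT libraries lay close together, and each was below every Ptbp1-deficient library (log2 fold change 0.70, SE 0.049, adjusted p = 9.6e-07).

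Psme1, the PA28 alpha gene, had 459, 460.2, 544, 576 and 541 CPM in the Ptbp1-deficient libraries, against 256, 306, 312, 324 and 263 CPM in the WT libraries. Ptbp1-deficient replicates 1 and 2 were lower than the other 3 of their group, yet lay above all WT libraries (log2 fold change 0.82, SE 0.086, adjusted p = 1.8e-05). Psme2, the PA28 beta gene, had 283, 274, 308, 336 and 291 CPM in the Ptbp1-deficient libraries, against 169, 179, 196, 198 and 174 CPM in the WT libraries. Again no libraries of the groups overlapped (log2 fold change 0.71, SE 0.065, adjusted p = 7.4e-06). Psme2b, a second gene for PA28 beta, was near the floor of the counts with 0.745 to 1.17 CPM in Ptbp1-deficient libraries and 0.498 to 1.12 CPM in WT libraries, and did not pass the test (log2 fold change 0.35, adjusted p = 0.24). Reads of Psme2 and Psme2b may be hard to separate, so the level of Psme2b is uncertain.

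**Figure D2:**
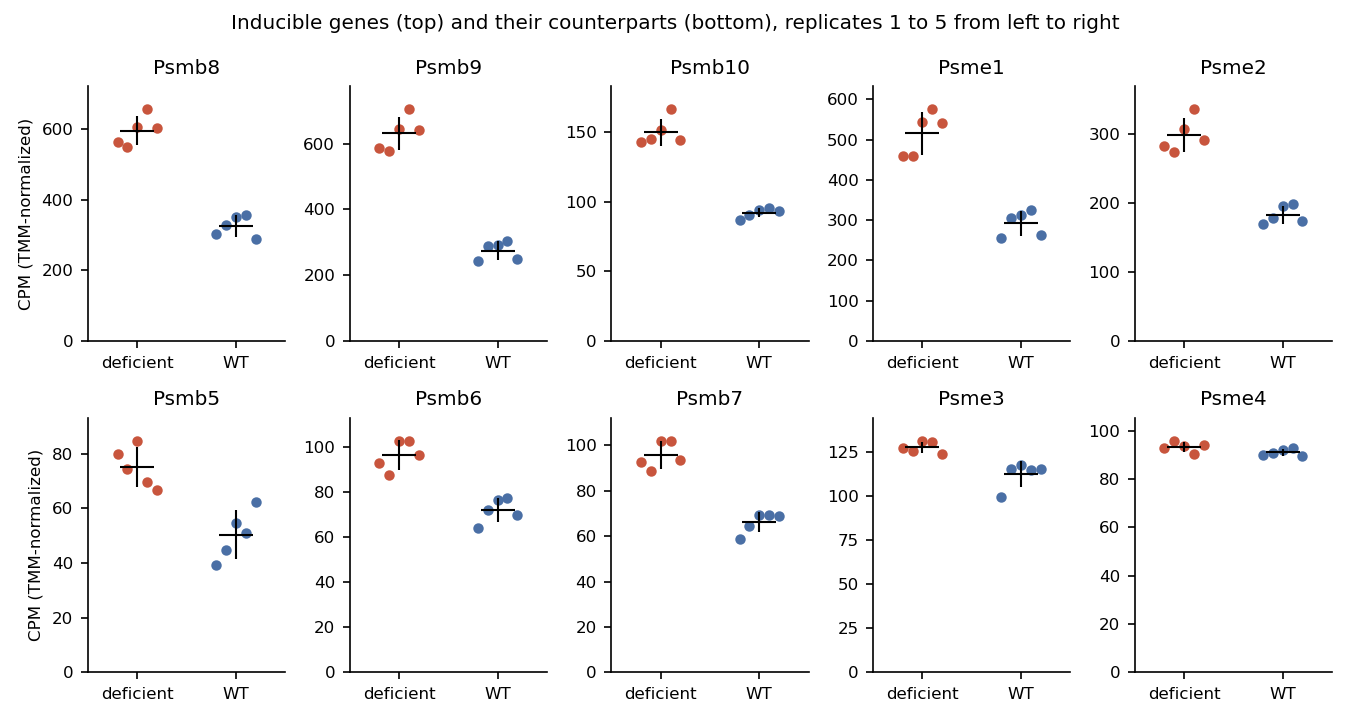
TMM-normalized CPM of 5 inducible genes (top row) and of the constitutive or nuclear counterparts Psmb5, Psmb6, Psmb7, Psme3 and Psme4 (bottom row), with 1 point per library and lines for mean and SD (n = 5 per group). Groups are apart for each gene but Psme4, whose Ptbp1-deficient libraries (90.3 to 95.9 CPM) overlap the WT libraries (89.7 to 93.1 CPM).

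The constitutive catalytic subunits rose as well, and the ratios below test whether each differed from its inducible counterpart. Psmb5 had 80.0, 74.4, 84.7, 69.5 and 66.8 CPM in the Ptbp1-deficient libraries, against 39.1, 44.6, 54.7, 51.1 and 62.2 CPM in the WT libraries. Its highest WT library, replicate 5, lay just under its lowest Ptbp1-deficient library, and its error was the largest among the constitutive beta subunits (log2 fold change 0.58, SE 0.11, adjusted p = 0.0015). Psmb6 had 93.0, 87.5, 103, 103 and 96.2 CPM in the Ptbp1-deficient libraries, against 64.1, 72.1, 76.4, 77.5 and 69.7 CPM in the WT libraries, with no overlap (log2 fold change 0.42, SE 0.062, adjusted p = 1.9e-04). Psmb7 had 92.7, 88.5, 102, 102 and 93.5 CPM in the Ptbp1-deficient libraries, against 58.9, 64.7, 69.4, 69.2 and 68.8 CPM in the WT libraries, also with no overlap (log2 fold change 0.53, SE 0.058, adjusted p = 2.3e-05). The alternative PA28 gene Psme3, which encodes the nuclear PA28 gamma, had 127, 126, 131, 130.3 and 124 CPM in the Ptbp1-deficient libraries, against 99.4, 115, 117, 115 and 115 CPM in the WT libraries. It rose by 1.14-fold, with every Ptbp1-deficient library above every WT library (log2 fold change 0.18, SE 0.048, adjusted p = 0.0084). Psme4, the nuclear activator PA200, had 92.8, 95.9, 93.7, 90.3 and 94.2 CPM in the Ptbp1-deficient libraries, against 89.8, 90.7, 92.1, 93.1 and 89.7 CPM in the WT libraries. Its groups overlapped and it did not pass the test (log2 fold change 0.04, adjusted p = 0.39, 95% interval -0.03 to 0.11).

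The ratio of an inducible gene to its counterpart, taken within each library, does not depend on library normalization. The log2 ratio of Psmb9 to Psmb6 counts was 2.71 ± 0.055 in Ptbp1-deficient libraries and 1.93 ± 0.064 in WT libraries, a difference of 0.78 (p = 0.00794 in a two-sided exact permutation test of 5 against 5 libraries, 0.00992 adjusted over the 5 ratios). For Psme1 over Psme3 it was 2.01 ± 0.14 in Ptbp1-deficient libraries and 1.38 ± 0.11 in WT libraries, a difference of 0.63. For Psme2 over Psme3 it was 1.22 ± 0.094 in Ptbp1-deficient libraries and 0.70 ± 0.086 in WT libraries, a difference of 0.52. Both gave the same p and adjusted p, 0.00794 being the smallest that 5 against 5 libraries allow. Psmb10 over Psmb7 was 0.65 ± 0.060 in Ptbp1-deficient libraries and 0.48 ± 0.052 in WT libraries, with that p too, but the difference of 0.17 was small. In the deposited FPKM values the same ratio differed by 0.18 and did not pass (exact permutation p = 0.0952, adjusted p = 0.111). Psmb8 over Psmb5 was 2.99 ± 0.20 in Ptbp1-deficient libraries and 2.71 ± 0.29 in WT libraries. Those groups overlapped, and the difference of 0.28 did not pass the exact permutation test (p = 0.111, adjusted p = 0.111). It was 0.16 without WT replicate 5, whose Psmb5 level was the highest of its group, and none of the 5 differences was tested against another.

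**Figure D3:**
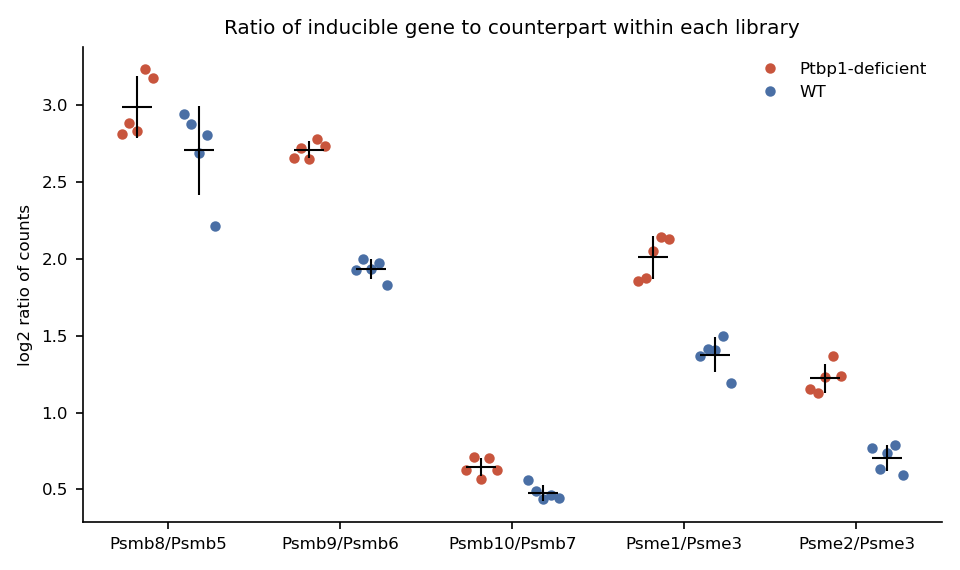
Log2 ratio of the counts of each inducible gene to those of its counterpart, within each library; points are libraries, and crosses give mean and SD (n = 5 per group). For Psmb9/Psmb6, Psmb10/Psmb7, Psme1/Psme3 and Psme2/Psme3 the Ptbp1-deficient libraries all lie above the WT libraries, and for Psmb8/Psmb5 the groups overlap, with WT replicate 5 lowest at 2.21.

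Per length of transcript, in the deposited FPKM, 4 of the 5 inducible genes were the most abundant proteasome genes in both genotypes. Psme1 averaged 328 ± 48.1 FPKM in Ptbp1-deficient libraries and 209 ± 15.7 FPKM in WT libraries, and Psmb8 327 ± 19.8 FPKM in Ptbp1-deficient libraries and 187 ± 16.5 FPKM in WT libraries. Psme2 averaged 314 ± 14.2 FPKM in Ptbp1-deficient libraries and 203 ± 20.5 FPKM in WT libraries, and Psmb9 297 ± 18.1 FPKM in Ptbp1-deficient libraries and 139 ± 11.1 FPKM in WT libraries. The averages of these 4 lay above those of every other member, and Psmb10 was lower with 96.4 ± 9.05 FPKM in Ptbp1-deficient libraries and 59.0 ± 5.31 FPKM in WT libraries. Psmb1, in Ptbp1-deficient libraries the most abundant constitutive subunit by this measure, averaged 131 ± 6.38 FPKM in Ptbp1-deficient libraries and 96.6 ± 5.60 FPKM in WT libraries. Within the pair Psmb9 and Psmb6, Psmb9 held 72.8% ± 0.74 of the FPKM in Ptbp1-deficient libraries and 61.8% ± 0.99 in WT libraries. Psmb8 held 81.2% ± 2.04 of its pair with Psmb5 in Ptbp1-deficient libraries and 77.8% ± 3.79 in WT libraries, and Psmb10 held 49.2% ± 2.19 of its pair with Psmb7 in Ptbp1-deficient libraries and 46.1% ± 2.94 in WT libraries. The shares depend on how levels are set per length. From CPM per kilobase of exon, Psmb10 held 75.8% ± 0.758 of its pair in Ptbp1-deficient libraries and 73.6% ± 0.696 in WT libraries, Psmb8 67.8% ± 3.01 and 63.4% ± 4.78, and Psmb9 77.0% ± 0.674 and 66.1% ± 1.00 in the same groups. Which gene of the pair Psmb10 and Psmb7 was the more abundant is therefore not settled by these tables, and protein was not measured.

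In the alpha ring, the gated outer ring of the core, 7 of 8 genes rose, with a median log2 fold change of 0.50 over the 8. Psma5 rose most of the core genes that are not inducible. It had 95.8, 95.1, 109.6, 118 and 107 CPM in the Ptbp1-deficient libraries, against 53.6, 57.0, 65.3, 62.8 and 54.8 CPM in the WT libraries. The groups did not overlap (log2 fold change 0.84, SE 0.073, adjusted p = 5.0e-06), and the fold of 1.79 was close to that of the inducible Psme1. Psma4, named here after its values were seen, was next with 139 ± 12.7 CPM in Ptbp1-deficient libraries and 81.3 ± 4.39 CPM in WT libraries (log2 fold change 0.77, SE 0.064, adjusted p = 3.5e-06). Psma3 had the highest CPM of the ring, which is not corrected for length, 153, 139, 157, 171 and 155 CPM in the Ptbp1-deficient libraries, against 104, 115, 121, 111 and 102 CPM in the WT libraries, with no overlap (log2 fold change 0.49, SE 0.061, adjusted p = 6.3e-05). The remaining 4 that rose, Psma1, Psma2, Psma6 and Psma7, had log2 fold changes of 0.41 to 0.52, without overlap between groups.

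Psma8, the testis-specific alternative to Psma7, was near the floor with 1.31 to 2.10 CPM in Ptbp1-deficient libraries and 0.911 to 2.55 CPM in WT libraries and did not pass the test (log2 fold change -0.30, adjusted p = 0.36). Its WT replicate 5, at 0.911 CPM, was the lowest of the 10 libraries. Without that library Psma8 fell (log2 fold change -0.48, adjusted p = 0.040), and it was then the 1 member called lower in the counts.

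All 7 constitutive beta subunits rose, within a narrow range of log2 fold changes, 0.42 to 0.58. Psmb5 had the largest rise. Psmb4, a subunit with no catalytic site, had the highest CPM, 152, 153, 164, 162 and 161 CPM in the Ptbp1-deficient libraries, against 99.9, 121, 124, 129 and 119 CPM in the WT libraries. Ptbp1-deficient libraries lay above all WT libraries, of which replicate 1 was the lowest (log2 fold change 0.42, SE 0.061, adjusted p = 2.0e-04). Psmb11, the thymus-specific catalytic subunit, is not among the genes of the count table. Summed over the 7, beta subunits reached 709 to 799 CPM in Ptbp1-deficient libraries, against 468 to 571 CPM in WT libraries.

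In the regulatory cap all 17 genes that the symbol rule takes rose. Of its base, the ring of ATPases that unfolds substrates, all 6 genes rose, by log2 fold changes of 0.26 to 0.51 with a median of 0.37. Psmc3 had both the largest rise and the highest CPM, with 116, 114, 126, 125 and 117 CPM in the Ptbp1-deficient libraries, against 73.5, 84.3, 86.8, 88.7 and 85.4 CPM in the WT libraries. WT replicate 1 stood below the other WT libraries, and every Ptbp1-deficient library lay above all WT libraries (log2 fold change 0.51, SE 0.054, adjusted p = 2.0e-05). Psmc4 moved least (log2 fold change 0.26, SE 0.057, adjusted p = 0.0030). In the FPKM values 4 of the 6 rose, and Psmc4 (adjusted p = 0.11 in limma) and Psmc6 (adjusted p = 0.12) did not pass. The 6 summed to 515 to 580.0 CPM in Ptbp1-deficient libraries, against 383 to 442 CPM in WT libraries.

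All 11 non-ATPase subunits that the symbol rule takes rose too, by log2 fold changes of 0.17 to 0.52 with a median of 0.32. Adrm1 and Sem1, parts of the cap with other symbols, are given further on, and Adrm1 did not pass. In the FPKM values 8 of the 11 rose, Psmd8 and Psmd13 did not pass, and Psmd11 fell. Psmd14, the deubiquitinase that strips ubiquitin from the substrate, rose most, with 82.8, 81.1, 93.9, 95.1 and 92.7 CPM in the Ptbp1-deficient libraries, against 57.3, 61.5, 64.5, 67.0 and 59.9 CPM in the WT libraries. The groups were well apart (log2 fold change 0.52, SE 0.059, adjusted p = 3.2e-05). Psmd2, the large scaffold that binds shuttle factors, had the highest CPM, 201, 197, 211, 214 and 206 CPM in the Ptbp1-deficient libraries, against 147, 166, 175, 177 and 162 CPM in the WT libraries, again without overlap (log2 fold change 0.32, SE 0.053, adjusted p = 4.7e-04). The ubiquitin receptor Psmd4 and the scaffold subunits Psmd8 and Psmd11 moved least, with log2 fold changes of 0.17 to 0.18, and were named after their values were seen. Psmd4 did not pass with the macrophage score as a covariate (adjusted p = 0.26). Taken over both parts of the cap, 17 genes rose with a median of 0.33, against 0.51 for the 14 alpha and beta genes other than Psma8. The difference between these medians was not tested.

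Psmf1, or PI31, which binds the core and inhibits it in vitro, rose modestly. It had 31.6, 33.5, 37.1, 36.3 and 39.2 CPM in the Ptbp1-deficient libraries, against 26.2, 30.4, 29.9, 31.1 and 28.6 CPM in the WT libraries. The lowest Ptbp1-deficient library lay just above the highest WT library (log2 fold change 0.28, SE 0.066, adjusted p = 0.0047). With Psme3 and Psme4 it formed a group of which 2 of 3 rose, with a median log2 fold change of 0.18.

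Among the 7 assembly chaperones 5 rose, with a median log2 fold change of 0.27. Psmg4, a chaperone of alpha ring assembly, rose most. It had 23.2, 19.8, 23.3, 23.0 and 20.6 CPM in the Ptbp1-deficient libraries, against 14.4, 14.4, 15.9, 18.5 and 17.6 CPM in the WT libraries, with no overlap (log2 fold change 0.44, SE 0.085, adjusted p = 0.0013). Psmd5, a chaperone of the ATPase base, had the highest CPM, 30.3, 30.6, 31.7, 31.9 and 32.2 CPM in the Ptbp1-deficient libraries, against 29.1, 31.0, 30.3, 33.5 and 30.3 CPM in the WT libraries. Per length it was low, with 6.54 FPKM in Ptbp1-deficient libraries and 6.70 FPKM in WT libraries, against 38.9 and 30.7 FPKM for Psmg4 in the same groups. Its groups overlapped and it did not pass the test (log2 fold change 0.02, adjusted p = 0.70, 95% interval -0.08 to 0.12). Psmd9 and Psmg1 rose although the groups overlapped, with log2 fold changes of 0.27 and 0.26 and adjusted p of 0.0098 and 0.027. Psmg1 did not pass when any 1 of Ptbp1-deficient replicates 2, 4 or 5 or WT replicates 1 or 3 was left out (adjusted p = 0.050 to 0.072). Psmd10, or gankyrin, was near the floor at 0.363 to 0.688 CPM in Ptbp1-deficient libraries and 0.269 to 0.799 CPM in WT libraries and did not pass (log2 fold change 0.22, adjusted p = 0.60). Its 95% interval was wide, -0.46 to 0.91.

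Psmc3ip matched the symbol rule but encodes a partner of meiotic recombination proteins, with no known place in the proteasome. It had 5.64, 5.46, 6.54, 6.81 and 6.22 CPM in the Ptbp1-deficient libraries, against 3.61, 3.24, 4.07, 4.20 and 4.38 CPM in the WT libraries. It rose without overlap (log2 fold change 0.65, SE 0.11, adjusted p = 5.1e-04), and 21.2% of its exon bases are shared with Mlx on the other strand.

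**Figure D4:**
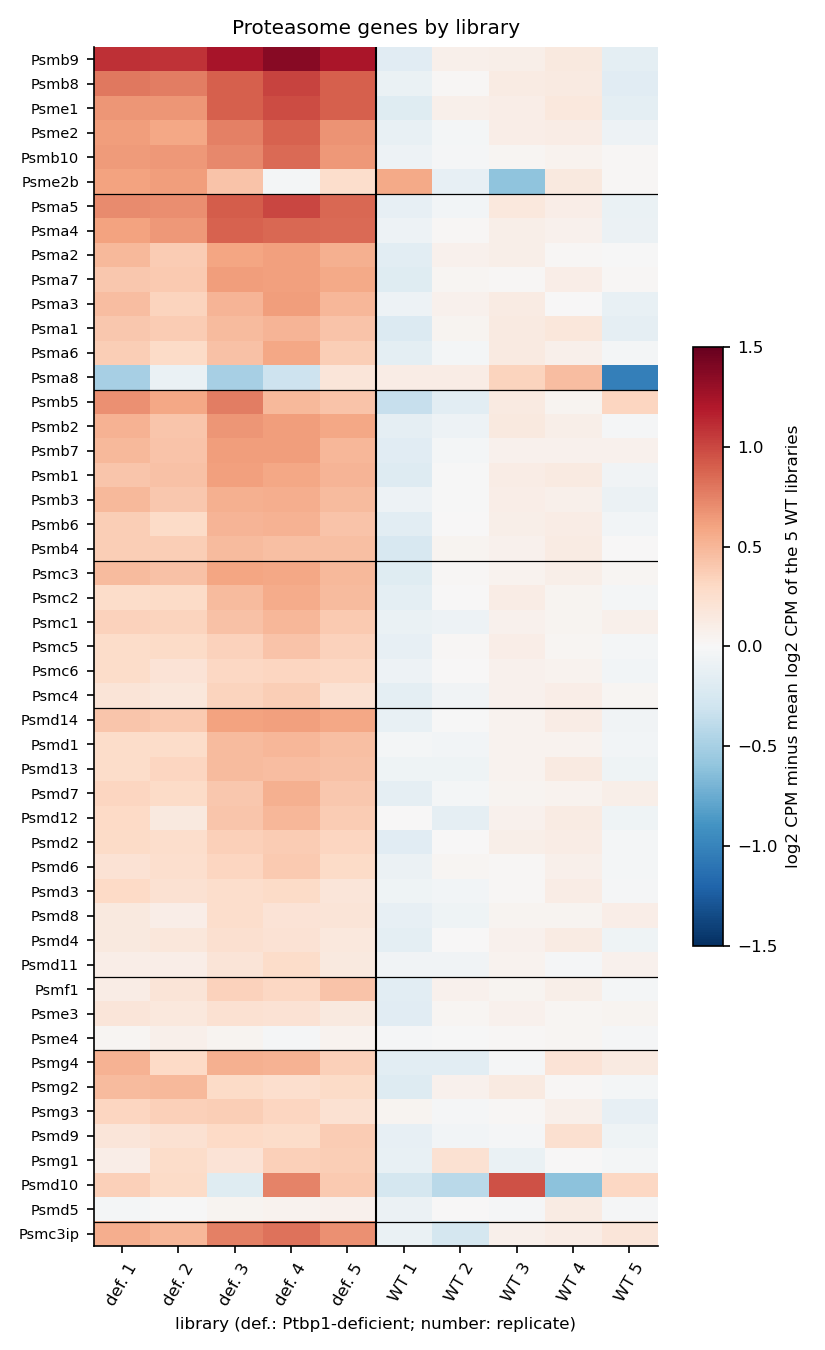
Log2 CPM of each proteasome gene in each of the 10 libraries, relative to the gene's mean over the 5 WT libraries, with genes in rows by part and Ptbp1-deficient libraries left of WT libraries. Ptbp1-deficient libraries are above the WT mean in nearly every row, with the widest contrast for Psmb9, and the mixed rows are those of Psma8, Psme2b, Psmd10, Psmd5 and Psme4.

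Libraries of a group kept similar ranks across members. Ptbp1-deficient replicate 1 or 2 was the lowest of its group in 40 of the 49 genes, and replicate 3 or 4 the highest in 40. Replicates 1 and 2 resembled each other over all genes. The chi-square of their counts over its degrees of freedom was 5.13, against 31.8 to 51.7 for either with replicates 3 to 5. Among WT replicates 2 to 4 this value was 8.20 to 9.83, and 36.1 to 44.0 for WT replicate 1 with any of them. For WT replicate 5 with any other WT library it was 75.2 to 96.7. Ptbp1-deficient replicates 1 and 2 also held fewer gene counts, 61759378 and 64935948, against 80164889 to 92697815 in replicates 3 to 5. The p-values treat the 5 libraries as exchangeable, and the labels give no reason for this split. Some cell markers, picked after their values were seen, split the same libraries. The macrophage gene C1qa had 21.4 and 20.6 CPM in replicates 1 and 2, against 77.8 to 103 CPM in replicates 3 to 5. For the dendritic cell marker Xcr1 these were 324 and 322 CPM, against 391 to 441 CPM. The macrophage gene Adgre1 ran the other way, with 215 and 219 CPM against 194 to 202 CPM. The part of such cells in the ranks of the proteasome genes was not tested. WT replicate 1 or 5 was the lowest of its group in 44 of the 49 genes, replicate 1 alone in 36. The TMM factor of WT replicate 1, which lowers its CPM, was 1.08, against 1.00 to 1.02 in the other WT libraries. By the members' share of gene counts, without that factor, WT replicate 5 was the lowest at 0.388%, and WT replicate 1 stood at 0.390%. Psmg2, chosen after its values were seen, ran the other way in the Ptbp1-deficient group, with 21.5, 21.6, 18.8, 18.4 and 18.8 CPM in the Ptbp1-deficient libraries, against 13.5, 16.1, 17.0, 15.6 and 15.1 CPM in the WT libraries (log2 fold change 0.36, SE 0.075, adjusted p = 0.0023). Without Ptbp1-deficient replicates 1 and 2, again 44 members rose and none fell. Without WT replicates 1 and 5, 43 rose, Psma8 fell and the median log2 fold change was 0.36.

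Markers of other cells also moved between the groups, where over all genes tested 21.9% rose and 23.1% fell. Of 15 macrophage genes 10 fell, and their summed level was 476 to 1167 CPM in Ptbp1-deficient libraries, against 1510 to 1582 CPM in WT replicates 2 to 4, 2811 CPM in WT replicate 1 and 4326 CPM in WT replicate 5. With the macrophage score as a covariate, 38 members rose, among them all 5 inducible genes, Psmb9 with a log2 fold change of 1.17. The score was lower in every Ptbp1-deficient library than in any WT library, so this fit cannot separate macrophage RNA from genotype. Psmd4, Psmd9, Psme3, Psmg1, Psmg2 and Psmg3 then did not pass, and 1 of 7 assembly chaperones did. Of 10 B cell genes 8 fell, at 314 to 377 CPM summed in Ptbp1-deficient libraries and 359 to 913 CPM in WT libraries. Of 10 NK cell genes 5 rose, at 183 to 269 CPM in Ptbp1-deficient libraries and 33.6 to 106 CPM in WT libraries. Summed T cell genes were at 44.3 to 52.0 CPM in Ptbp1-deficient libraries and 30.6 to 95.8 CPM in WT libraries, and neutrophil genes at 95.3 to 173 CPM and 56.7 to 843 CPM in the same groups, the highest value in both lists being WT replicate 5. Erythroid genes summed to 13.5 to 69.8 CPM in Ptbp1-deficient libraries and 23.8 to 84.9 CPM in WT libraries. Each measured marker had counts in every library, which holds for every gene that the count table lists. The part of macrophages in the result is therefore not settled, and that of the B and NK cells was not tested.

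Of the 12 dendritic cell markers, all with a mean of at least 10 CPM, 5 rose and 3 fell. Among all genes at that level 32.5% rose and 25.1% fell, so these counts were near the background. Xcr1, which marks cDC1 cells, averaged 376 ± 52.0 CPM in Ptbp1-deficient libraries and 117 ± 16.3 CPM in WT libraries. Sirpa, which marks cDC2 cells, averaged 589.5 ± 49.5 CPM in Ptbp1-deficient libraries and 886 ± 45.9 CPM in WT libraries. Clec9a, Itgax, H2-Aa and Zbtb46 also rose, and Dpp4 and Cd209a also fell. Clec9a rose 1.59-fold, against 3.21-fold for Xcr1. Dpp4 had 415 ± 12.1 CPM in Ptbp1-deficient libraries and 518 ± 51.4 CPM in WT libraries. The share of either subset was not measured. All 20 interferon-stimulated genes listed rose, and their summed level was 3688 to 4700 CPM in Ptbp1-deficient libraries and 1450 to 1581 CPM in WT libraries. The part of these changes in the proteasome result was not tested.

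Of 40 symbols listed for genes that work with the proteasome but fall outside the symbol rule, 37 matched a measured gene. The list holds older names of some genes beside the current ones. Of the 37, 13 rose, 5 fell and 19 did not pass, with a median log2 fold change of 0.07. Of the 36 with a mean of at least 10 CPM, 36.1% rose and 11.1% fell, where 32.5% of all such genes rose and 25.1% fell, so the share that rose was near the background. Pomp, which matures the core, had 245, 234, 262, 267 and 246 CPM in the Ptbp1-deficient libraries, against 188, 176, 178, 176 and 169.6 CPM in the WT libraries, with no overlap (log2 fold change 0.50, SE 0.046, adjusted p = 7.4e-06). Sem1, a small subunit of the regulatory cap, had 117 ± 8.78 CPM in Ptbp1-deficient libraries and 80.5 ± 6.26 CPM in WT libraries (log2 fold change 0.53, SE 0.066, adjusted p = 5.6e-05). Adrm1, a ubiquitin receptor of the cap, had 79.0 ± 1.63 CPM in Ptbp1-deficient libraries and 82.3 ± 4.55 CPM in WT libraries and did not pass (log2 fold change -0.06, adjusted p = 0.29). Txnl1, a thioredoxin that binds the cap, rose with 59.6 ± 3.96 CPM in Ptbp1-deficient libraries and 42.8 ± 1.44 CPM in WT libraries (log2 fold change 0.48, SE 0.049, adjusted p = 1.6e-05). The aminopeptidase Lap3, named after its values were seen, had the largest rise of the list, with 77.4 ± 16.6 CPM in Ptbp1-deficient libraries and 35.4 ± 5.27 CPM in WT libraries (log2 fold change 1.13, SE 0.14, adjusted p = 7.2e-05).

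Transcription factors of the NFE2-like family, of which Nfe2l1 is known for inducing proteasome genes when proteasome activity is impaired, were lower. Nfe2l1 had 146, 142, 146, 145 and 139.9 CPM in the Ptbp1-deficient libraries, against 154, 150.2, 169.6, 156 and 155 CPM in the WT libraries. It fell slightly, with every Ptbp1-deficient library below every WT library (log2 fold change -0.13, SE 0.039, adjusted p = 0.020). Nfe2l3 was low and fell (log2 fold change -1.05, SE 0.13, adjusted p = 7.2e-05). It had 1.59 ± 0.228 CPM in Ptbp1-deficient libraries and 3.31 ± 0.310 CPM in WT libraries. Nfe2l2, named because it was among 5 that fell, had a log2 fold change of -0.28 (adjusted p = 0.012), and its groups overlapped. Protein and activity of these factors were not measured, and their part in the proteasome result was not tested. The shuttle factors Ubqln2 and Ubqln4, which carry ubiquitinated proteins to the proteasome, were the other 2 that fell. Ubqln2 had 32.4 ± 1.47 CPM in Ptbp1-deficient libraries and 45.0 ± 3.72 CPM in WT libraries (log2 fold change -0.48, SE 0.059, adjusted p = 6.0e-05), and Ubqln4 had 38.8 ± 1.53 CPM in Ptbp1-deficient libraries and 44.1 ± 1.72 CPM in WT libraries (log2 fold change -0.18, SE 0.042, adjusted p = 0.0043).

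The deposited FPKM table holds 48 of the 49 members, all but Psma8. In limma's test on log2(FPKM + 1), 39 rose, 1 fell and 8 did not pass, where 20.2% of all genes in that table rose and 27.1% fell. Of the 44 that rose in the counts, 37 rose in the FPKM values too. Another 6, Psmc4, Psmc6, Psmd8, Psmd9, Psmd13 and Psmg1, did not pass there. Psmd11, a scaffold subunit of the cap, went opposite ways: it rose in the counts (log2 fold change 0.17, SE 0.046, adjusted p = 0.011) and fell in the FPKM values, at 16.2 ± 0.979 FPKM in Ptbp1-deficient libraries and 18.5 ± 1.52 FPKM in WT libraries (change of -0.18 on the log2(FPKM + 1) scale, adjusted p = 0.038). Psme2b and Psmd10 rose in the FPKM values alone, and their levels differed between the tables. Psme2b had 68.2 ± 4.52 FPKM in Ptbp1-deficient libraries and 50.3 ± 3.87 FPKM in WT libraries, whereas its CPM per kilobase of exon were 1.20 and 0.938 in Ptbp1-deficient and WT libraries. Psmd10 had 9.55 ± 0.412 FPKM in Ptbp1-deficient libraries and 8.25 ± 0.609 FPKM in WT libraries, against 0.356 and 0.304 CPM per kilobase in Ptbp1-deficient and WT libraries, and the FPKM table holds a second identifier with that symbol.

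**Figure D5:**
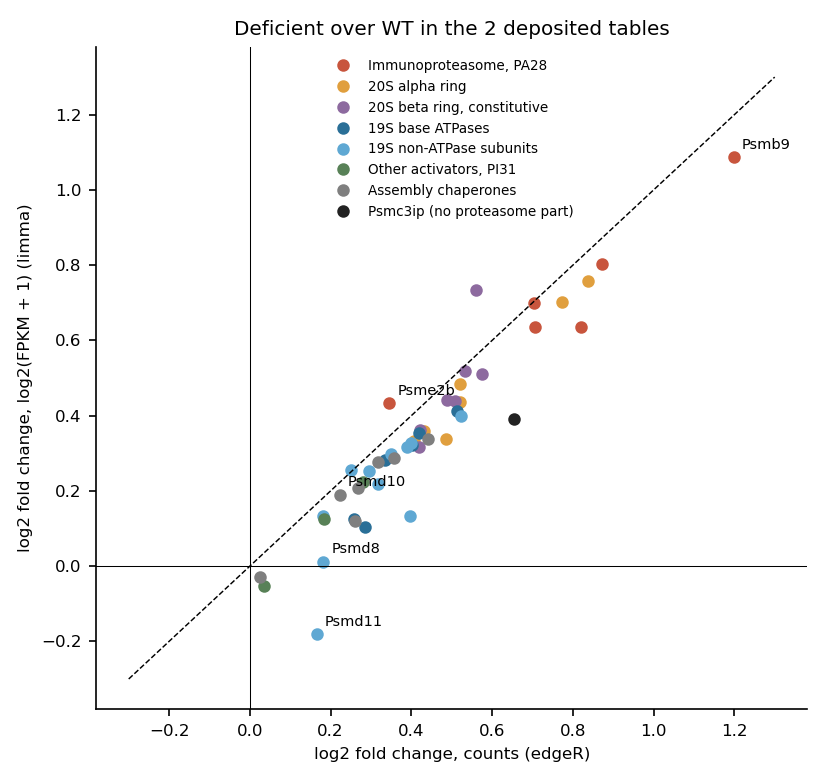
Log2 fold change of 48 proteasome genes, Ptbp1-deficient over WT, from the counts (edgeR, horizontal axis) and from the deposited FPKM (limma on log2(FPKM + 1), vertical axis), coloured by part, with a line of equal change. Most points lie near or below the line, Psmb9 is highest on both axes at 1.20 and 1.09, and Psmd11 is right of 0 on the count axis and below 0 on the FPKM axis.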

How the data were processed

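Paired reads of 150 bp were sequenced from dendritic cell RNA in 5 Ptbp1-deficient and 5 WT libraries. The authors deposited unnormalized counts per gene and an FPKM table with a value per gene and library. Per the submitters' processing notes, HISAT2, StringTie and DESeq2 were used, without versions, and the notes name the human build GRCh38 although the deposited identifiers are Ensembl's for mouse. The sources used here give neither the counter, nor its use of strand, nor the tool behind the FPKM. Reads outside genes (17.4% to 18.9% of Ptbp1-deficient and 17.2% to 22.2% of WT counts), reads placed at several sites (4.51% to 5.08%) and ambiguous reads (1.78% to 1.94%) stand in 5 rows that name no gene and were left out. The count table lists genes with at least 2 counts in every library.

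Symbols and coordinates came from GENCODE M21 (GRCm38), which matched 19035 identifiers (99.3%). edgeR's filterByExpr removed 930 genes. Counts were TMM-normalized and fitted in edgeR 4.0.16 (quasi-likelihood test; limma 3.58.1; R 4.3.3) with genotype as the only term, with Benjamini-Hochberg adjustment and a threshold of 0.05. The FPKM, with 10 repeated identifiers summed, were tested with limma on log2(FPKM + 1), a scale that understates changes of low genes. Log2 ratios used a prior count of 0.5 and exact permutation tests over 252 assignments of libraries. Intervals of fold changes are 95%. The fit was tested on simulated counts.

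Values in every library were given for Psmb8, Psmb9, Psmb10, Psme1, Psme2, Psmb5, Psmb6, Psmb7, Psme3 and Psme4, for the called member with the largest rise and the member with the highest mean CPM of each other part, and for members that fell. From the related genes the rule takes up to 3 per direction with the smallest adjusted p, Pomp, Adrm1, Sem1 and Nfe2l1; of these, Pomp and Nfe2l1 are given in every library and the others by mean and SD. The members, lists and tests were chosen with earlier results of these data known. Alternatives were DESeq2 1.42.0, limma-voom with weights for library quality, other normalizations (upper-quartile, RLE), tests of unfiltered genes or of those at 1 CPM or more in 5 libraries, a block on replicate number, FPKM with pseudocounts of 1 and 0.1, FPKM ratios, a prior count of 2, a threshold of 0.01, and fits without each library in turn. Fits without WT replicates 1 and 5, without Ptbp1-deficient replicates 1 and 2, and with the macrophage score were added after seeing the data. An alignment of the catalytic subunits' proteins was planned and not run.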

Additional observations from a re-analysis of the deposited data

Results flagged for a closer look

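A screen of 108 groups of 5 libraries for a single library far from the rest picked out 3 values, where chance picks out about 1 in 20 groups. Psmc3, an ATPase of the regulatory cap, had 73.48 CPM in WT replicate 1, below 84.3 to 88.66 CPM in the other WT libraries. Psme3, the PA28 gamma gene, had 99.38 CPM in WT replicate 1, below 114.8 to 117.5 CPM in the others. Psmd9, a chaperone of the base, had 22.18 CPM in WT replicate 4, above 17.19 to 18.59 CPM in the others, and that library lay inside the Ptbp1-deficient range of 21.3 to 24.3 CPM.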

How the results depend on the processing

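Of the 44 members that rose, 33 kept the call and direction in every alternative run. The number that rose was 38 to 44 and leaving out 1 library gave 43 to 44; the 5 inducible genes rose in each alternative. The number that fell, 0, was 1 in the FPKM with either pseudocount and among the non-ATPase subunits there (Psmd11, -0.18 and -0.19 on the log2 scale with pseudocounts of 1 and 0.1, the cause not tested). It ranged from 0 to 1 when 1 library was left out, overall and in the alpha ring, and was 1 without WT replicates 1 and 5 (Psma8, -0.53, adjusted p = 0.038). With the macrophage score as a covariate 1 assembly chaperone (5 otherwise) and 1 of the other activators (2 otherwise) rose. Members that did not pass changed sign: Psmd5 with upper-quartile normalization (-0.0191), in the FPKM (-0.0301 and -0.0340) and without WT replicates 1 and 5 (-0.0118), and Psme4 with upper-quartile normalization (-0.00770), in the FPKM (-0.0518 and -0.0548) and with the macrophage score (-0.00268). Upper-quartile normalization moved the median of all genes to -0.07, with the members' median still 0.43 above it. The FPKM ratio Psmb10/Psmb7 differed by 0.18 (adjusted p = 0.111).

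No pairing by replicate number was seen: same-numbered libraries correlated at -0.096 to 0.11, and 1 of 5 correlated best with its own number. The labels do not say whether equal numbers mark pairs, and these correlations cannot settle it. With the replicate block in the edgeR fit, 44 members rose and none fell. For the ratios, the replicate block left the differences at 0.78 (Psmb9/Psmb6), 0.17 (Psmb10/Psmb7), 0.63 (Psme1/Psme3) and 0.52 (Psme2/Psme3), and none passed, because sign flips of 5 pairs cannot give a p under 0.05. Low counts limit Psma8, Psmd10 and Psme2b.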
